A study of Mus musculus with 66 samples.

Results

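Germinal centre (GC) B cells given both signals of follicular helper T cells, the cytokine IL-21 and an antibody against CD40 (anti-CD40), were compared after 4 h and after 2 h of culture. All 6 libraries that the titles place in these groups were taken, 3 at 4 h and 3 at 2 h, of 66 in the series, and no measured value entered the choice. The cells came from the spleen of BALB/c mice of the MEG line, which carry an IgM B1-8 B cell receptor transgene, so every group here expresses a transgenic receptor. Cells labelled GC B cells were purified with beads and stimulated. The age of the mice, the doses and the immunization are not given in the sources used here. The time effect was set against that in 4 other cultures of the same transgenic strain: GC B cells with anti-CD40 alone (3 libraries at 4 h and 2 at 2 h), GC B cells with IL-21 alone (3 at each time), naive B cells with IL-21 plus anti-CD40 (3 at each time) and unstimulated GC B cells (2 at each time). Nothing in the labels ties replicates to separate mice. The p-values therefore speak of variation among these libraries alone, and that variation may be technical.

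CD40 is a receptor of the TNF receptor family whose ligation activates NF-kB and MAP kinases in B cells. The IL-21 receptor signals through JAK kinases and STAT3. A response to such signals unfolds in waves: immediate early genes are switched on without new protein synthesis and are soon shut off by feedback inhibitors, while later genes often depend on the products of the first wave. In the germinal centre, T cell help is known to induce Myc, which drives the cell growth that precedes division.

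Expression is given as the deposited log2 value of a gene in a library, on a scale close to log2 CPM (counts scaled to a common library total), and a change is the log2 value at 4 h minus that at 2 h, with its standard error (SE) from a limma fit. Sequencing depth is unknown. Correlations between replicate libraries across genes were 0.981 for each pair at 4 h and from 0.975 to 0.986 at 2 h, against 0.911 to 0.944 between libraries of different times. Levels of the 7 B cell genes differed. Cd79a lay between 10.03 and 10.39 at 4 h and between 10.98 and 11.15 at 2 h. Cd22 lay between 4.91 and 5.21 at 4 h and between 7.10 and 8.01 at 2 h. Pax5 was lower, between 3.45 and 3.63 at 4 h and between 3.49 and 3.86 at 2 h. The GC gene Rgs13 lay between 6.34 and 6.79 at 4 h and between 8.86 and 9.39 at 2 h. Transcripts of other cells were also present. Of 10 myeloid markers all were tested and 7 fell with time, and their summed back-transformed level was between 63.9 and 74.5 at 4 h and between 89.5 and 148 at 2 h. Of the T cell markers Cd3d lay between -5.10 and -1.99 at 4 h and between -3.33 and -1.30 at 2 h, near the lowest values in the files. The summed level of the T cell list was between 1.84 and 3.72 at 4 h and between 2.56 and 4.37 at 2 h, and 1 of its 5 tested members, Lat, fell. Of 3 erythroid markers tested 1 fell, of 3 stromal and endothelial markers 1 fell (Pecam1), and of 2 NK markers 1 rose (Nkg7). The summed erythroid level was above the myeloid, T cell, NK and stromal sums in all 6 libraries. It lay between 594.8 and 997.9 at 4 h and reached 926.3 at 2 h. The erythroid marker Beta-s lay between 9.13 and 9.85 at 4 h and was not called. The summed stromal and endothelial level was between 9.36 and 15.1 at 4 h and between 21.6 and 38.1 at 2 h. Pecam1 lay between 2.02 and 2.43 at 4 h and between 3.98 and 4.69 at 2 h. The stromal genes did not share its fall and were not called. Col1a1 lay between 1.14 and 2.42 at 4 h and between 0.63 and 2.30 at 2 h. Col1a2 lay between 1.46 and 2.30 at 4 h and between 1.39 and 2.69 at 2 h. Of 7 genes that define B cells 4 fell and 2 rose, among them Ebf1, and their summed level was between 4117 and 4831 at 4 h and between 6542 and 7220 at 2 h. Of 6 genes that define naive B cells 3 fell and 1 rose. Their summed level was between 801.9 and 819.4 at 4 h and between 943.9 and 1106 at 2 h. For all these marker counts, the shares over all genes tested were 31.3% that fell and 30.1% that rose. The part of these markers in the changes below was not tested. In bulk RNA, fewer cells of a type and less RNA per cell cannot be told apart.

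Most of the genes tested changed between the time points. Of 10851 genes tested, 3265 rose at 4 h against 2 h (30.1%) and 3393 fell (31.3%), together 61.4%, at an adjusted p under 0.05. In 3580 genes (33%) the 3 libraries at 4 h all lay above the 3 at 2 h, and in 3548 (32.7%) they all lay below. Most changes were small. The median was 0.74 among genes that rose and -0.75 among genes that fell, 1023 genes rose and 1159 fell by more than 2-fold, and 25 rose and 60 fell by more than 8-fold. The deposited libraries have nearly identical value distributions, so the near balance of rises and falls is set by the authors' scaling and a general gain or loss of RNA per cell cannot be seen.

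The 12 largest rises, taken from called genes whose libraries average 4 or more and do not overlap between times, included immune receptors and enzymes and genes of RNA and protein processing. Tnfrsf8, which encodes the TNF receptor family member CD30, had log2 values of 6.27, 6.05 and 5.48 at 4 h, against 2.64, 2.73 and 2.21 at 2 h. The times did not overlap, and the change was 3.41 ± 0.59 (SE; adjusted p = 1.41e-05). Ido1, the tryptophan-degrading enzyme indoleamine 2,3-dioxygenase, had 7.65, 7.65 and 7.73 at 4 h, against 4.79, 4.83 and 5.03 at 2 h, a change of 2.80 ± 0.48. Fscn1, the actin-bundling protein fascin, had 9.79, 9.33 and 8.85 at 4 h, against 7.22, 6.80 and 5.78 at 2 h. Nek6, a mitotic kinase, had 7.21, 6.99 and 6.81 at 4 h, against 4.31, 4.19 and 4.33 at 2 h, and its change of 2.73 ± 0.14 had the smallest SE of the 12. Tmem41a, a membrane protein gene, changed by 2.82 ± 0.16. Cd320, the receptor for vitamin B12 bound to transcobalamin, changed by 2.6 ± 0.20, the RNA pseudouridine synthase Pus7 by 2.39 ± 0.18, and the zinc transporter Slc39a10 by 2.39 ± 0.22. Mogs, the glucosidase that starts N-glycan trimming, had 6.79, 7.25 and 7.53 at 4 h, against 4.63, 3.80 and 3.19 at 2 h.

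For 3 of the 12 the spread at 2 h was wide. Alyref, an adaptor for mRNA export, had 8.07, 8.46 and 8.35 at 4 h, against 7.30, 5.51 and 3.78 at 2 h, a change of 2.76 ± 1.03 (adjusted p = 0.025). Aven, an apoptosis inhibitor, had 5.78, 5.68 and 5.54 at 4 h, against 4.6, 3.37 and 1.02 at 2 h. Tspan33, a tetraspanin of activated B cells, had 5.73, 5.85 and 5.55 at 4 h, against 4.10, 3.84 and 1.18 at 2 h. In all 3 the groups stayed apart, but the calls of Aven and Tspan33 were lost without replicate 3 at 2 h, the lowest library, and when the 6 libraries were fitted alone. The call of Alyref was lost without replicate 2 or 3 of either time and in both fits of fewer groups, and the cause was not tested.

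**Figure D1:**
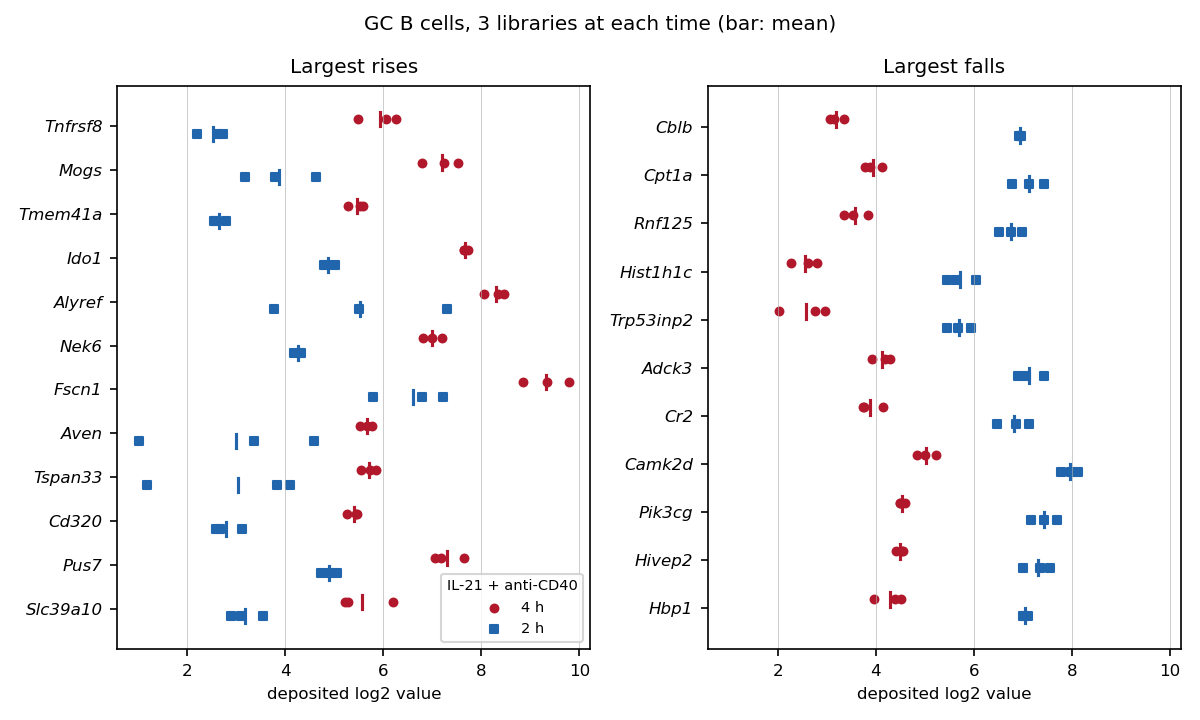
Deposited log2 values (x axis) in each of the 3 libraries at 4 h (red circles, upper row of each gene) and the 3 at 2 h (blue squares, lower row) for the 12 genes with the largest rises (left) and 11 of the 12 with the largest falls (right), with the mean as a vertical bar. The libraries of the 2 times do not overlap for any gene shown, which the choice of genes required, and the 2 h values of Alyref spread from 3.78 to 7.30.

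For each direction, the first 2 promoters of the named genes that hold one of the motifs searched are shown. The letters let a reader see what was matched. Promoters in RefSeq's table for GRCm38.p6 run from 250 bases before to 50 bases after the start. They were found for 11 of the 12 genes that rose most, of which 4 held a motif, and for 8 of the 12 that fell most, of which 2 held one. Capitals mark the motif letters. The Tnfrsf8 promoter, at chr4:145315115-145315414 on the minus strand, holds 2 overlapping NF-kB matches, an AP-1 match and an E-box. The Fscn1 promoter, at chr5:142960105-142960404 on the plus strand, holds a cAMP response element (CRE). The promoters of Pus7, with an E-box, and of Slc39a10, with the STAT motif TTCNNNGAA, are not printed. Among the genes that fell, the Trp53inp2 promoter at chr2:155381606-155381905 (plus strand) holds a CRE and the Hivep2 promoter at chr10:13966129-13966428 (plus strand) holds an NF-kB match.
Tnfrsf8: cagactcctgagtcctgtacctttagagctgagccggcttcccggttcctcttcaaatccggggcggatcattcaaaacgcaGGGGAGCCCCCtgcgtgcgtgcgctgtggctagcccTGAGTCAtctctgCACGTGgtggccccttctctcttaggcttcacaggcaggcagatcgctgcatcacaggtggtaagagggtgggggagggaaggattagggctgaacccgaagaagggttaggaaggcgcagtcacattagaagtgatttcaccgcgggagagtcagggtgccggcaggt
Fscn1: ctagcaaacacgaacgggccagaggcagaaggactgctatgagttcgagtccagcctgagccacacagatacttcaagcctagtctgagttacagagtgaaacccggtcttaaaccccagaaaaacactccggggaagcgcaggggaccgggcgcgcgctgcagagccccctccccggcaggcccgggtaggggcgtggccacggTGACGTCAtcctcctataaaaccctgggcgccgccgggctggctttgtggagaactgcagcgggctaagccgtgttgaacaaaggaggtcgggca
Trp53inp2: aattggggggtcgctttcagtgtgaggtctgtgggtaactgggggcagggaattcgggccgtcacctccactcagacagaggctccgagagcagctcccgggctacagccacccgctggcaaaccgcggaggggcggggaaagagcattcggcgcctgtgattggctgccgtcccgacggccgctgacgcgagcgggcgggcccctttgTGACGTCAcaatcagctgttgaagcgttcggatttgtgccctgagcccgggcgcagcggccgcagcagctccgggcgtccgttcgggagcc
Hivep2: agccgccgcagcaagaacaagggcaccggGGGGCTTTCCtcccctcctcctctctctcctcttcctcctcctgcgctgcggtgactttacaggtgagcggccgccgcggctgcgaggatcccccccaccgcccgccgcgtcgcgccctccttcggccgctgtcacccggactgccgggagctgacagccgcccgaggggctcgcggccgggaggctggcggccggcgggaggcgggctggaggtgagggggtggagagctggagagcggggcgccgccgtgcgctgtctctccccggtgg

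Across all genes with a listed promoter, 2464 of those that rose, 2584 of those that fell and 8165 of those tested, each motif was searched on both strands and a promoter with any match counted once. The E-box CACGTG was in 12.6% of promoters of genes that rose, 10.3% of those that fell and 10.9% of all tested. The STAT motif TTCNNNGAA was in 7.71%, 6.62% and 6.91% in the same order. The NF-kB consensus was in 8.64% of promoters of genes that rose, 11.1% of those that fell and 10.2% of all. The serum response CArG box was in 0.893%, 1.74% and 1.29%. The AP-1 motif TGANTCA was in 3.86%, 4.26% and 4.62%, the CRE TGACGTCA in 3.33%, 3.87% and 3.5%, and the interferon-stimulated response element (ISRE) in 3.37%, 2.83% and 3.21%. A match describes the letters only.

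The 12 largest falls by the same rule included a signalling inhibitor, a fatty acid catabolism gene and a complement receptor. Cblb, an E3 ubiquitin ligase that restrains lymphocyte receptor signalling, had 3.07, 3.36 and 3.15 at 4 h, against 6.92, 6.96 and 6.95 at 2 h. Its change of -3.74 ± 0.12 (adjusted p = 8.47e-20) was the largest of the 12. Cpt1a, which admits fatty acids to mitochondria for oxidation, had 3.89, 4.14 and 3.78 at 4 h, against 6.78, 7.12 and 7.43 at 2 h. Cr2, the complement receptor CD21, had 3.75, 3.74 and 4.14 at 4 h, against 6.48, 6.86 and 7.13 at 2 h, a change of -2.94 ± 0.24. Pik3cg, the catalytic subunit of PI3-kinase gamma, had 4.59, 4.50 and 4.50 at 4 h, against 7.17, 7.43 and 7.69 at 2 h. Hbp1, a transcriptional repressor linked to cell cycle arrest, changed by -2.75 ± 0.10. The ubiquitin ligase Rnf125 changed by -3.17 ± 0.13, the linker histone Hist1h1c by -3.15 ± 0.28, the autophagy regulator Trp53inp2 by -3.11 ± 0.23, the coenzyme Q kinase Adck3 by -3.0 ± 0.14, the calcium-dependent kinase Camk2d by -2.93 ± 0.14 and the zinc finger gene Hivep2 by -2.80 ± 0.15.

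Immediate early genes were lower at 4 h than at 2 h. Of 22 tested, 16 fell and none rose, with a median change of -0.98, against a median of 0 over all genes. Over all genes 31.3% fell. When all 66 libraries were fitted with a set term, 11 of the 22 fell. The orphan nuclear receptor gene Nr4a1 had 3.64, 3.82 and 4.20 at 4 h, against 5.94, 6.22 and 6.48 at 2 h, and Nr4a2 changed by -2.63 ± 0.21. Klf6, a zinc finger factor, had 5.50, 5.87 and 6.12 at 4 h, against 7.48, 7.69 and 7.93 at 2 h. Btg2, an antiproliferative gene, changed by -1.50 ± 0.13. Egr1 and Egr2, early growth response factors, gave -0.21 ± 0.30 and -0.05 ± 0.10 and were not called. Against unstimulated GC B cells of the same time, 6 of the 22 were higher at 4 h and 5 at 2 h, and 7 were lower at 4 h and 1 at 2 h. Over all genes 17.5% were higher at 4 h and 5.95% at 2 h, and 18.9% were lower at 4 h and 3.51% at 2 h. Of the 16 that fell, 3 had been called higher at 2 h.

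Inhibitors of MAP kinase signalling and mRNA decay factors were next. Of 14 tested 8 fell and 1, Spry1, rose by 1.74, and the median was -0.87. Of all genes tested 31.3% fell and 30.1% rose. Dusp4, a phosphatase of ERK, had 2.08, 1.59 and 1.75 at 4 h, against 4.24, 4.33 and 4.62 at 2 h. Dusp5, another, had 4.30, 4.32 and 4.21 at 4 h, against 6.11, 6.20 and 5.62 at 2 h. The change of Dusp5 was -1.70 with both signals and -1.34 in unstimulated GC B cells, where it was called too. The RNA-binding decay factors Zfp36l1 and Zfp36 changed by -1.05 ± 0.12 and -0.70 ± 0.12.

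Of 21 NF-kB target genes tested 11 fell and 3 rose (Ebi3, Nfkbib and Traf1), against 31.3% and 30.1% of all genes. The median was -0.23, and 6 fell when all 66 libraries were fitted with a set term and 7 without replicate 3 at 4 h. Nfkbiz, an atypical IkB protein, had 4.03, 3.96 and 3.88 at 4 h, against 5.69, 5.67 and 5.55 at 2 h, and the change of -1.68 ± 0.08 had the smallest adjusted p of the list. Nfkbid, a related nuclear IkB, changed by -1.06 ± 0.07. The subunit genes Rel and Relb changed by -1.62 ± 0.14 and -0.76 ± 0.07. Among the feedback inhibitors, Nfkbia, which encodes IkB-alpha, had 11.11, 11.09 and 10.95 at 4 h, against 11.39, 11.26 and 11.19 at 2 h, and was not called (-0.23 ± 0.11, adjusted p = 0.0719), but was called when adjusted for transcript length or with a slope on the replicate number. Tnfaip3, which encodes A20, fell by -0.39 ± 0.16, a call lost under 9 of the 18 alternatives. The panel genes Cd83, a maturation marker, and Cd40 itself gave -0.32 ± 0.09, called, and 0.18 ± 0.09, not called except with that slope. Against unstimulated cells, 14 of the 21 genes were higher at 4 h, where 17.5% of all genes were, and 16 at 2 h, where 5.95% were.

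Of 21 genes of the JAK-STAT arm 6 rose and 5 fell (Cish, Stat3, Pim1, Il4ra and Il21r), with a median of 0.33, counts near or below the shares over all genes (30.1% and 31.3%). With a slope on the replicate number as a term 11 rose. Pim3 had 7.0, 6.95 and 7.0 at 4 h, against 6.24, 6.24 and 6.30 at 2 h, and Pim2, a second survival kinase, rose by 0.78 ± 0.12. Socs2, a feedback inhibitor of cytokine receptors, had 7.10, 6.82 and 6.44 at 4 h, against 5.20, 4.57 and 4.37 at 2 h. Stat5a rose by 0.86 ± 0.14 and Socs1 by 0.51 ± 0.14. The receptor genes Il4ra and Il21r gave -0.48 ± 0.08 and -0.46 ± 0.11, and Pim1, a kinase gene of the panel, had 10.02, 9.77 and 9.60 at 4 h, against 10.40, 10.47 and 10.51 at 2 h. Socs3, a direct STAT3 target, had 8.96, 8.59 and 8.33 at 4 h, against 8.64, 8.42 and 8.14 at 2 h, and the times overlapped, although each library at 4 h lay above the one with the same number at 2 h. Its change of 0.23 ± 0.24 was not called. Batf, a bZIP factor of activated B cells, gave 0.33 ± 0.24 and Prdm1, which encodes the plasma cell factor Blimp-1, gave 0.41 ± 0.24, neither called. With the slope on the replicate number Socs3 and Batf were called as higher at 4 h (adjusted p = 0.0147 and 0.000475). Against unstimulated cells 18 of the 21 genes were higher at 4 h, where 17.5% of all genes were, and 17 at 2 h, where 5.95% were.

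Myc was not called between the times. It had 10.27, 10.01 and 9.81 at 4 h, against 10.05, 10.08 and 10.41 at 2 h, values that overlap, and its change was -0.15 ± 0.13 (adjusted p = 0.326). Adjusted for transcript length it was called, at -0.32 (adjusted p = 0.0406). It stood 3.78 above unstimulated cells at 4 h and 4.79 at 2 h. The drop between these values is larger than the change of -0.15 with both signals, so it also holds the change in unstimulated cells. Among 10 members of the Myc network 4 fell and 2 rose, not far from the shares over all genes (31.3% and 30.1%). The Mxd genes encode partners of Max that oppose Myc. Mxd1 had 2.45, 2.54 and 2.28 at 4 h, against 3.44, 3.59 and 3.74 at 2 h, Mxd3 changed by -2.22 ± 0.39, and Mxd4 and Mnt, also opponents of Myc, changed by -1.50 and -0.90. The genes that rose were Mlx (0.70 ± 0.12) and Mga (0.63 ± 0.13). The call of Mga was lost when all 66 libraries were fitted with a set term.

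Ribosome biogenesis genes rose. Of 28 ribosome biogenesis genes 25 rose and none fell, against 30.1% and 31.3% of all genes, with a median of 0.93. Bop1, an assembly factor of the large subunit, had 8.50, 8.34 and 8.17 at 4 h, against 6.55, 6.58 and 6.63 at 2 h. Dkc1, the pseudouridine synthase dyskerin, had 9.27, 9.16 and 9.03 at 4 h, against 7.61, 7.48 and 7.46 at 2 h. Wdr12 and Nop56, further assembly factors, changed by 1.77 ± 0.12 and 1.32 ± 0.10. Against unstimulated cells 24 of the 28 were higher at 4 h, where 17.5% of all genes were, and 12 at 2 h, where 5.95% were.

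Biosynthetic enzymes moved in the same direction. For the counts that follow, the shares over all genes were 30.1% that rose and 31.3% that fell. Of 16 nucleotide and polyamine genes 13 rose, with a median of 0.79, and 1, Odc1, fell by -0.35. Srm, spermidine synthase, had 9.95, 9.95 and 9.74 at 4 h, against 8.06, 7.74 and 7.54 at 2 h, a change of 2.10 ± 0.14. Gart and Adsl of purine synthesis changed by 1.63 ± 0.11 and 1.22 ± 0.08, and Dhodh of pyrimidine synthesis by 1.58 ± 0.11. Of 20 cytosolic tRNA synthetases 17 rose and none fell (median 0.81). Wars, which charges tryptophan tRNA, had 8.34, 7.99 and 7.94 at 4 h, against 6.60, 6.61 and 6.56 at 2 h, and Farsb changed by 1.27 ± 0.07. Of 26 genes of amino acid transport, the ATF4 response and one-carbon metabolism 15 rose and 3 fell (Slc38a2, Atf4 and Sesn2), with a median of 0.68. The glutamine transporter Slc1a5 changed by 1.05 ± 0.07, the transporter subunit Slc3a2 by 0.93 ± 0.09, and the serine hydroxymethyltransferases Shmt1 and Shmt2 by 1.97 ± 0.17 and 1.42 ± 0.13.

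Most lipid synthesis and chaperone genes rose. Of 25 sterol and fatty acid genes 15 rose and 3 fell (Scd1, Srebf1 and Srebf2), with a median of 0.69. Lss, lanosterol synthase, had 6.41, 6.17 and 5.93 at 4 h, against 4.61, 4.53 and 4.76 at 2 h, and Fdps changed by 1.36 ± 0.12. The desaturases went opposite ways: Scd2 rose by 1.56 ± 0.15, while Scd1 gave -1.43 ± 0.12. Of 19 glycolysis genes 9 rose and 2 fell (Aldoc and Hk1), with a median of 0.22, and Ldha, lactate dehydrogenase, had 12.62, 12.26 and 11.99 at 4 h, against 11.36, 11.19 and 11.32 at 2 h. Adjusted for transcript length, 6 of the 19 rose and the median was 0.04, and 5 rose when all 66 libraries were fitted. Of 18 chaperones 14 rose, among them the chaperonin subunit Cct5 (1.07 ± 0.08), the mitochondrial Hspd1 (1.21 ± 0.09) and Hsp90ab1 (0.95 ± 0.10), and 9 rose when all 66 libraries were fitted. The 3 that fell were the heat shock genes Hspa1a (-2.33 ± 0.27), Hspa1b (-1.58) and Dnajb1 (-0.59). Of 20 genes of the unfolded protein response 4 rose, or 2 when all 66 libraries were fitted, and 8 fell. Over all genes 30.1% rose and 31.3% fell. Those that fell included Edem1 (-1.57 ± 0.09), which sorts misfolded glycoproteins for degradation, the co-chaperone Dnajb9 (-1.47 ± 0.09) and Herpud1 (-1.08 ± 0.09). The disulphide isomerase Pdia4 rose by 1.29 ± 0.11.

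**Figure D2:**
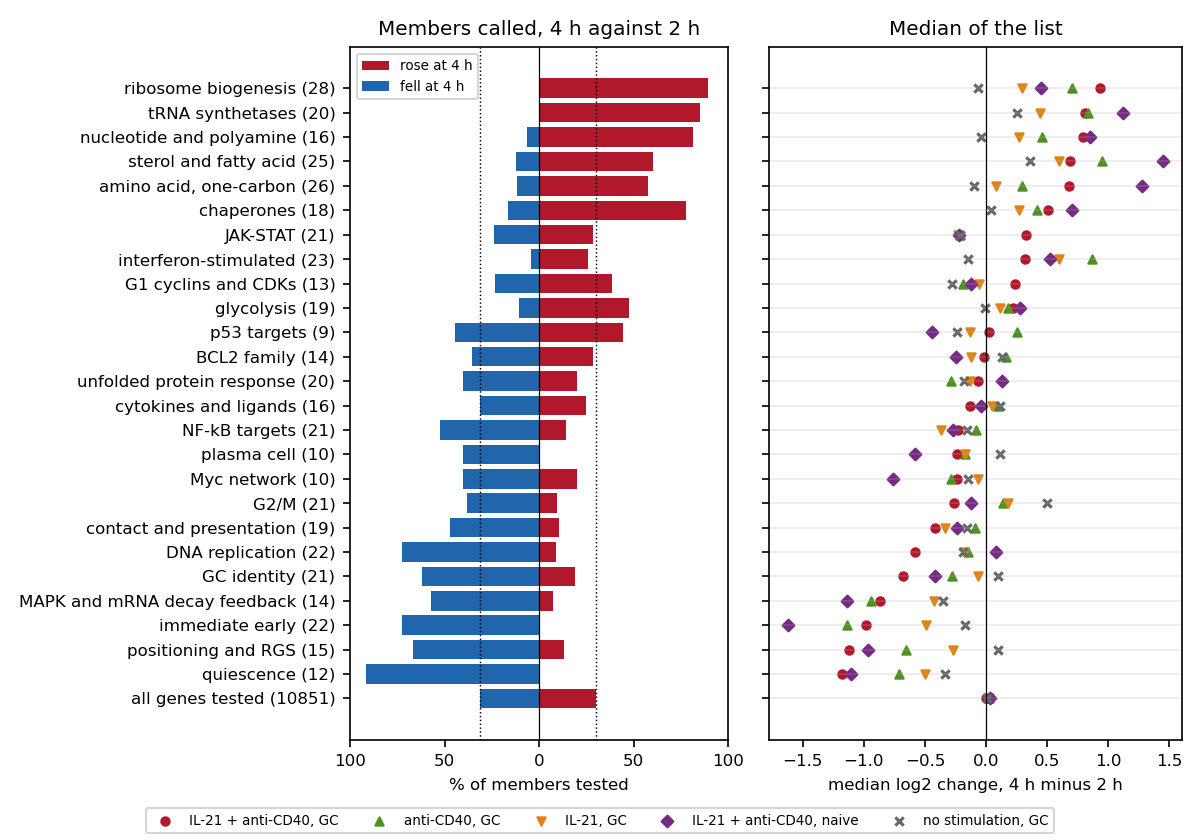
Left, share (%) of the tested members of each gene list that rose (red, to the right) or fell (blue, to the left) at 4 h against 2 h, with the number tested in brackets and the shares over all genes as dotted lines (30.1% and 31.3%). Right, the median log2 change of each list in 5 cultures; ribosome biogenesis lies at 0.93 with IL-21 plus anti-CD40 in GC B cells and at -0.07 without stimulus.

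Of 13 G1 cyclins, kinases and regulators 5 rose and 3 fell, near the shares over all genes (30.1% and 31.3%). Ccnd2, the D-type cyclin induced on B cell activation, had 11.01, 10.66 and 10.27 at 4 h, against 9.19, 8.89 and 8.75 at 2 h, and its partner kinases Cdk4 and Cdk6 rose by 0.80 ± 0.07 and 0.95 ± 0.13. Cdk2, which acts later, fell by -0.73 ± 0.10. DNA replication genes fell: 16 of 22 were lower and 2 higher (Gins1 and Mcm6), with a median of -0.58. Pcna, the polymerase clamp, had 7.48, 7.52 and 7.53 at 4 h, against 8.45, 8.37 and 8.36 at 2 h, and Pola1, the catalytic subunit of polymerase alpha, changed by -1.56 ± 0.17. The licensing genes Cdt1 and Mcm4 changed by -0.56 ± 0.07 and -0.86 ± 0.10. Of 21 G2/M genes 8 fell and 2 rose (Cdc20 and Plk1), against 31.3% and 30.1% of all genes. The falls numbered 5 when all 66 libraries were fitted and 12 when GC libraries were fitted alone, and neither the 66-library fit nor the length adjustment called a rise. Among those that fell were Cenpa, the centromeric histone, at -0.85 ± 0.08, the spindle motor Kif11 at -1.08 ± 0.17, the kinase Nek2 at -1.04 ± 0.19 and Ccnb2, a B-type cyclin, at -0.77 ± 0.15. Against unstimulated cells of the same time, 20 of the 21 G2/M genes were lower at 4 h, where 18.9% of all genes were, and 1 at 2 h, where 3.51% were. The median time effect of the list was -0.26 with IL-21 plus anti-CD40 and 0.50 without stimulus.

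Genes that define GC B cells mostly fell. Of 21 GC identity genes 13 fell and 4 rose, against 31.3% and 30.1% of all genes. Among the 4 were Tcf3, Ezh2 and Bach2, and the median of the list was -0.68. Rgs13, which limits chemokine receptor signalling in the germinal centre, had 6.34, 6.66 and 6.79 at 4 h, against 8.86, 9.12 and 9.39 at 2 h. Polh, the translesion polymerase that acts in somatic hypermutation, had 5.04, 4.8 and 4.92 at 4 h, against 6.91, 7.09 and 7.25 at 2 h. The glycosylase Neil1 changed by -1.56 ± 0.12 and the cofactor Lmo2 by -1.69 ± 0.18. Bcl6, the repressor that sets GC fate, had 4.79, 4.87 and 4.87 at 4 h, against 5.38, 5.57 and 5.63 at 2 h (-0.68 ± 0.11). Bach2 rose by 0.30, a call lost under 9 of the 18 alternatives.

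No plasma cell gene was called as risen. Of 10 tested 6 were not called and 4 fell, where 31.3% of all genes did. Igj, the joining chain of polymeric antibodies, had 8.18, 8.44 and 8.42 at 4 h, against 10.27, 10.53 and 10.74 at 2 h, Irf4 changed by -0.36 ± 0.10, Ell2 by -0.63 ± 0.09 and Mzb1 by -0.48 ± 0.12. Xbp1 gave -0.04 and was not called, except when adjusted for transcript length (-0.22). Prdm1, at 0.41, was not called either. Against unstimulated cells 2 of the 10 were higher at 4 h (17.5% of all genes) and 2 at 2 h (5.95%). Those called lower were 3 at 4 h (18.9% of all genes) and 1 at 2 h (3.51%). Among positioning receptors and RGS regulators 10 of 15 fell and 2 rose (Ccr6 and Ccr7). S1pr1, the receptor for exit from lymphoid tissue, had 3.92, 4.01 and 4.10 at 4 h, against 5.66, 5.74 and 6.05 at 2 h. Cxcr5, which guides B cells into follicles, changed by -1.12 ± 0.11, the dark zone receptor Cxcr4 by -1.15, S1pr2, which holds cells in the germinal centre, by -0.83 ± 0.13, and Rgs1 by -2.27 ± 0.25.

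Quiescence genes fell. Of 12 targets of FOXO factors and KLF2, 11 fell and none rose, against 31.3% and 30.1% of all genes. The median of -1.18 was the lowest of the lists. Ccng2, a cyclin of resting cells, had 3.41, 3.60 and 3.98 at 4 h, against 6.15, 6.36 and 6.61 at 2 h. Tsc22d3, which encodes the glucocorticoid-induced leucine zipper, changed by -1.97 ± 0.22 and Btg1 by -1.16 ± 0.11. Klf2 gave -0.63 ± 0.60 with values of 4.55, 4.84 and 4.83 at 4 h, against 6.06, 6.06 and 4.0 at 2 h, and was not called. Foxo1 itself had 7.82, 7.93 and 7.87 at 4 h, against 8.22, 7.98 and 6.47 at 2 h, and was not called (0.32 ± 0.52).

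In the BCL2 family the genes for 3 BH3-only killers fell by more than 1. Bmf had 1.64, 1.60 and 2.01 at 4 h, against 4.66, 4.89 and 4.76 at 2 h. Bbc3, which encodes Puma, had 3.0, 3.24 and 3.09 at 4 h, against 5.28, 5.15 and 5.05 at 2 h, and Pmaip1, which encodes Noxa, changed by -1.46 ± 0.09. The effector Bax rose by 0.84 ± 0.09. Among the pro-survival members, Bcl2 rose by 1.64, while Bcl2l1, which encodes Bcl-xL, gave -0.38 ± 0.22 and Mcl1 gave 0.57, neither called. Bcl2l1 was called when adjusted for length or with a slope on the replicate number. Over the family 4 of 14 rose (Bcl2, Bax, Bak1 and Bid) and 5 fell (the 3 above, Bcl2l11 and Bcl2a1b), near the shares over all genes, with a median of -0.02, and 3 fell when all 66 libraries were fitted. Of 9 p53 targets 4 rose and 4 fell, against 30.1% and 31.3% of all genes. Trp53inp1 changed by -2.02 ± 0.13 and Mdm2, the ligase that degrades p53, by -0.65 ± 0.08.

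Interferon-stimulated genes mostly did not pass: 6 of 23 rose, 1 fell and 16 were not called, with a median of 0.32. Over all genes 30.1% rose and 31.3% fell. The GTPase gene Gbp2 had 8.84, 8.54 and 8.40 at 4 h, against 7.02, 6.77 and 6.65 at 2 h, and Bst2, which encodes tetherin, changed by 1.60 ± 0.18. The gene that fell was the master factor Irf7, with 4.35, 4.42 and 4.45 at 4 h, against 6.09, 5.90 and 5.91 at 2 h.

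Counts of secreted factors lay near the shares over all genes. Ccl22, a chemokine that attracts T cells through CCR4, had 5.20, 4.56 and 4.50 at 4 h, against 2.18, 1.22 and 1.69 at 2 h, a change of 3.06 ± 0.33, and Ebi3, a subunit of IL-27 and IL-35, changed by 1.77 ± 0.16. The chemokines Ccl3 and Ccl4 changed by -1.32 ± 0.17 and -1.17 ± 0.14. Over 16 cytokines and ligands 4 rose, Tnfsf4 (3.14) and Lta (0.37) besides those, and 5 fell, Ltb, Tnf and Il12a besides those. Ccl22 and Tnfsf4 lay under the mean of 4 asked of the 12 largest rises. Of 19 genes of contact and antigen presentation 9 fell and 2 rose (Ciita and Cd44), against 31.3% and 30.1% of all genes. The costimulator Cd86 had 8.25, 8.22 and 8.21 at 4 h, against 9.79, 9.83 and 9.85 at 2 h. Icosl, the ligand by which B cells engage ICOS on T cells, had 2.92, 3.01 and 3.03 at 4 h, against 4.90, 5.11 and 5.13 at 2 h. The activation marker Cd69 changed by -1.21 ± 0.09, while the adhesion receptor Cd44 rose by 1.01 ± 0.10.

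Transient and late genes were separated by their difference from unstimulated GC B cells of the same time. That difference comes from a fit of all 66 libraries, because the unstimulated libraries (2 at each time) were normalized apart, and a term for library set, estimated from anti-CD40 libraries in both sets, links them. It shares the 4 h and 2 h libraries with the time effect and serves as a description. At 4 h 3949 genes were called against unstimulated cells (36.4%), 1901 higher (17.5%) and 2048 lower (18.9%), and at 2 h 1027 (9.46%), 646 higher (5.95%) and 381 lower (3.51%). Of the 3265 genes that rose, 1138 were higher than unstimulated cells at 4 h and not called at 2 h, and 226 were higher at both times. Of the 3393 that fell, 219 had been higher at 2 h: 117 were still higher at 4 h, 93 were not called and 9 were lower. A further 1416 were lower at 4 h and not called at 2 h. By these calls, genes that fell and were lower only at 4 h outnumbered those that returned from a raised level at 2 h. The counts do not show which pattern prevailed, since 36.4% of genes were called at 4 h and 9.46% at 2 h.

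The genes named for each pattern were picked from it after the values were seen. Among the transient genes, Crem, a repressor induced by cAMP, had 4.18, 4.18 and 4.19 at 4 h, against 6.76, 6.80 and 6.81 at 2 h, and stood -0.69 from unstimulated cells at 4 h and 1.68 at 2 h. Nfkbiz stood 0.28 above at 4 h and 2.02 at 2 h, and Dusp5 0.47 at 4 h and 0.83 at 2 h. Dusp5 fell without stimulus too (-1.34), and the difference of -0.36 between both signals and no stimulus was not called. The phosphodiesterase Pde4b had 6.90, 6.80 and 6.76 at 4 h, against 8.34, 8.49 and 8.64 at 2 h. Genes that fell but stayed raised included Ppp1r15a, which encodes the stress phosphatase subunit GADD34, at 1.26 above at 4 h and 2.93 at 2 h, Samsn1, an inhibitor of B cell activation, at 1.53 and 3.27, and Pmaip1 at 0.92 and 1.98. Fas, the death receptor, stood 2.29 above at 4 h and 3.29 at 2 h, and Cd69 3.83 and 4.61.

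Among genes already raised at 2 h that rose further, Ido1 stood 5.40 above unstimulated cells at 4 h and 2.15 at 2 h, Srm 3.68 and 1.43, Ebi3 5.30 and 3.63, Gbp2 5.29 and 3.93 and Socs2 5.46 and 2.99. The folate carrier Slc19a1 had 8.32, 8.14 and 7.83 at 4 h, against 5.99, 5.76 and 5.69 at 2 h. Late genes, not called at 2 h, included Tnfrsf8 (6.60 at 4 h, 1.71 at 2 h), Tmem41a (2.6 at 4 h, -0.15 at 2 h), Nek6 (2.73 at 4 h, -0.47 at 2 h) and Fscn1 (5.51 at 4 h, and 2.68 at 2 h, not called). Socs3 and Batf stood high at both times: Socs3 stood 8.13 above at 4 h and 8.63 at 2 h, and Batf 6.84 and 6.05. Cblb was near the unstimulated level at 2 h (0.29) and below it at 4 h (-2.52).

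**Figure D3:**
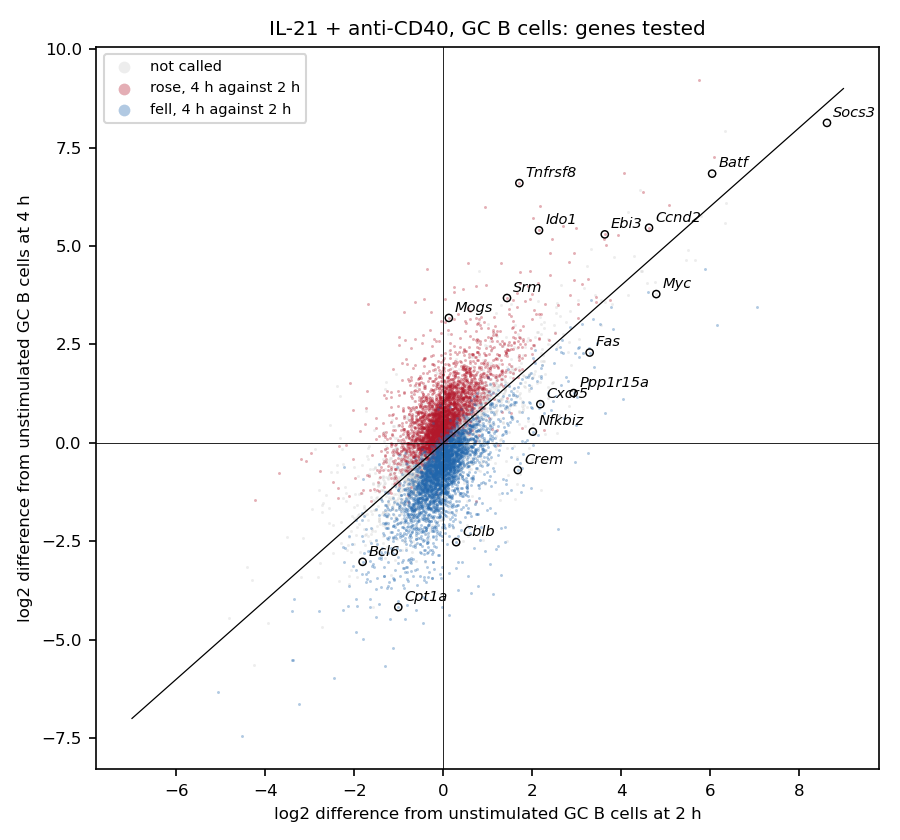
Log2 difference from unstimulated GC B cells at 4 h (y axis) and at 2 h (x axis) for the genes tested, red where the gene rose and blue where it fell at 4 h against 2 h. Points above the diagonal are farther up at 4 h; Tnfrsf8 lies at 6.60 at 4 h and 1.71 at 2 h, Crem at -0.69 and 1.68, and Socs3 near the diagonal at 8.13 and 8.63.

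The time effect was then set against that of anti-CD40 alone in GC B cells, by a test of the difference between both time effects in the same fit. The difference was called in 3386 genes (31.2%), higher with IL-21 plus anti-CD40 in 1477 (13.6%) and lower in 1909 (17.6%). A fit of all 66 libraries with a set term called 1619. The deposited values carry an offset that runs with the replicate number, and it does not cancel in this difference, since anti-CD40 alone has replicates 1 and 2 only at 2 h. Ido1 changed by 2.80 ± 0.48 with both signals and by -0.92 with anti-CD40 alone, a difference of 3.72 ± 0.72, although the change with anti-CD40 alone was not called. Spp1, the cytokine osteopontin, had 6.04, 5.89 and 5.59 at 4 h, against 3.97, 3.90 and 3.78 at 2 h, and fell with anti-CD40 alone (-2.46). Mogs rose with both signals, and its change of -0.64 with anti-CD40 alone was not called. In the other direction, Pim2 rose by 0.78 with both signals and by 2.75 with anti-CD40 alone, and Fcer2a, the low-affinity IgE receptor CD23, fell by -0.41 and rose by 1.62. Cpt1a fell by -3.18 with both signals and by -0.90 with anti-CD40 alone, Hpse, heparanase, changed by -2.66 and -0.19, and Serinc3 by -1.84 and 0.16. Of the 12 quiescence genes 7 had a lower time effect with both signals, as did 9 of the 21 GC identity genes, and of the 28 ribosome biogenesis genes 9 had a higher one.

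Against IL-21 alone in GC B cells the difference was called in 3608 genes (33.3%), higher in 1699 (15.7%) and lower in 1909 (17.6%), and the fit of all 66 libraries called 1444. Ebi3 rose by 1.77 ± 0.16 with both signals and fell with IL-21 alone (-0.94). Tnfrsf8 rose by 3.41 with both and gave 0.56 with IL-21 alone, not called, a difference of 2.85 ± 0.84, and the change of Nek6 with IL-21 alone was 0.03. Fam160a1 rose with both signals (2.11 ± 0.28) and fell with IL-21 alone (-1.04). Myc was not called with both signals and rose by 0.88 with IL-21 alone, and the difference of -1.03 was called. Bcl6 went opposite ways, falling by -0.68 with both signals and rising by 1.06 with IL-21 alone. Cpt1a and Cblb fell in both cultures, by -3.18 and -3.74 with both signals and by -0.75 and -1.42 with IL-21 alone. Itgb3, the integrin beta 3 subunit, fell with both signals (-2.23 ± 0.11) and gave 0.10 with IL-21 alone. Of the 28 ribosome biogenesis genes 18 had a higher time effect with both signals and none a lower one, and of the 26 amino acid and one-carbon genes 13 had a higher one.

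The same pair of signals was next compared between GC and naive B cells. The difference was called in 3080 genes (28.4%), higher in GC B cells in 1243 (11.5%) and lower in 1837 (16.9%), and the fit of all 66 libraries called 1185. Cbfa2t3, a corepressor, rose by 2.20 ± 0.24 in GC B cells and gave -0.15 in naive cells. Endou, an endoribonuclease, fell by -2.33 in GC and by -4.65 in naive B cells. Dnase1l3 and Abtb2 were not called in GC B cells (0.20 and 0.32) and fell in naive cells (-2.44 and -2.02). Cblb fell by -3.74 in GC and by -1.26 in naive B cells. The replication genes Gins2 and Chek1 changed by -0.44 and 0.09 in GC B cells, the second not called, and rose by 1.79 and 2.17 in naive cells. Over the 22 DNA replication genes 13 had a lower time effect in GC B cells and none a higher one, and the list medians were -0.58 in GC and 0.08 in naive cells. Of the sterol and fatty acid genes 16 of 25 had a lower time effect in GC B cells, with Lss at 1.54 in GC and 3.14 in naive cells, while of the ribosome biogenesis genes 17 of 28 had a higher one.

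Unstimulated GC B cells had 2 libraries at each time. Their time effect was called in 153 genes (1.41%). The difference between both signals and no stimulus was called in 2012 genes (18.5%), higher in 930 (8.57%) and lower in 1082 (9.97%). With a replicate block it was called in 3662. Tnfrsf8 differed by 4.89 ± 0.93, with values in unstimulated libraries of 0.60 and -1.10 at 4 h and 1.67 and 0.79 at 2 h. Hpse fell with both signals and gave 0.52 without stimulus, and Pde2a, a cyclic nucleotide phosphodiesterase, changed by -2.38 and 0.47. A few of the largest falls were seen without stimulus too: Hist1h1c fell by -3.15 with both signals and by -2.49 without, Adck3 by -3.0 and -1.74, and Rnf125 by -3.17 and -1.54. For Hist1h1c the difference of -0.66 was not called.

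Across the cultures that share no library with it, the calls overlapped in part. The time effect was called in 49.6% of genes with anti-CD40 alone, 35.1% with IL-21 alone, 59.4% in naive B cells with both signals and 1.41% without stimulus. The last value comes from the fit of all 66 libraries with 2 unstimulated libraries at each time, and in that fit the time effect with both signals was called in 4823 genes, not 6658. Of the 3265 genes that rose with both signals, 57.5% also rose with anti-CD40 alone (26.8% of all genes tested did). Of the same genes, 1322 genes also rose with IL-21 alone (17.7% of all genes), 68.2% of them rose in naive B cells with both signals (31.7%) and 1.29% without stimulus (0.636%). Of the 3393 that fell, 48.4% also fell with anti-CD40 alone (22.8%). Of the same genes, 1374 genes also fell with IL-21 alone (17.5%), 63.8% of them fell in naive cells (27.7%) and 1.89% without stimulus (0.774%). Across the 10851 genes, Pearson's r of the time effect with that in the other culture was 0.54 for anti-CD40, 0.57 for IL-21, 0.67 for naive B cells and 0.28 for no stimulus. Genes are not independent replicates, and the first 3 cultures were normalized together with the cells described.

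**Figure D4:**
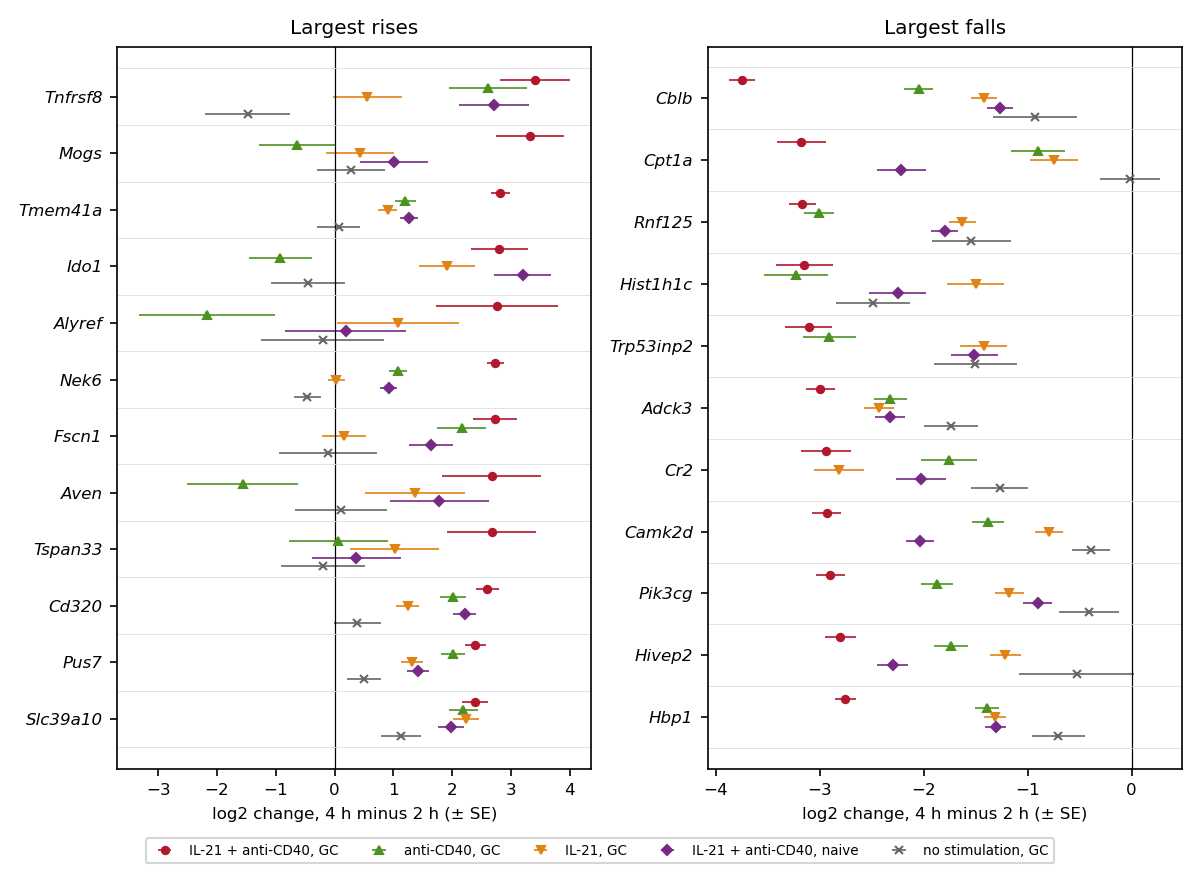
Log2 change, 4 h minus 2 h, with its standard error (x axis) in 5 cultures for the 12 genes with the largest rises (left) and 11 of the 12 with the largest falls (right). Ido1 rose with IL-21 plus anti-CD40 in GC and naive B cells (2.80 and 3.20) and gave -0.92 with anti-CD40 alone, while Hist1h1c fell in all 5 cultures.

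Transcript length moved with the time effect. The longest annotated transcript had a median of 2936 bases among genes that rose, 3771 among genes that fell and 3344 among all tested, and Spearman's rho of the time effect with length was -0.16 over 10241 genes, against -0.02 with anti-CD40 alone, -0.09 with IL-21 alone, -0.15 in naive B cells and 0.03 without stimulus. With each library adjusted for length, 2793 genes rose and 3528 fell of 10241. The part of length in the changes was not tested beyond this. The ribosomal RNA precursor Rn45s was at 14.63, 13.73 and 13.75 at 4 h and at 14.63, 14.65 and 14.67 at 2 h, and Lars2 at 14.33, 14.64 and 14.55 at 4 h and at 13.81, 13.00 and 12.03 at 2 h.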

How the data were processed

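RNA was measured in SMART-Seq v4 libraries, per the labels' protocols. The submitters' processing notes name limma, STAR (2.6.1a), featureCounts of Subread (2.0.1), Trim Galore (0.6.5), FastQC (0.11.7) and build mm10; order and settings are not given in the sources used here. Each file the authors deposited holds log2 values of 1 library, for 23420 symbols. The form of the column headers divides the libraries into sets of 34 and 32, taken as normalized apart. The 6 libraries are in the first, whose values carry an offset by replicate number (where Rn45s is the top gene, it has 14.634, 14.651 or 14.668 in replicates 1, 2 and 3). Contrasts of complete triplets cancel it; the difference from anti-CD40 alone, with 2 GC libraries at 2 h, does not. Depth is unknown, so no counting interval is given; the number of libraries limits precision.

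Genes that exceeded 1 on the log2 scale in 3 or more of 34 libraries were tested with limma 3.58.1 (R 4.3.3, statmod 1.5.0) over 12 groups, with a trended, robust prior and 22 residual degrees of freedom. Comparisons with unstimulated cells used all 66 libraries and a library set term (40 degrees of freedom). Tests are two-sided, with Benjamini-Hochberg adjustment across the genes tested. The fit was tested on simulated data. Results for a few genes are not reported here. Members and lists were chosen with earlier results of these data known. Named genes are the 12 largest rises and falls among called genes with a mean of at least 4 and no overlap between times, 5 each way for each difference, up to 4 of each list by adjusted p, and a panel of 25. The genes of the transient and late patterns, and list members outside this rule, were chosen after their values were seen. Lengths are those of GENCODE transcripts. Alternatives left out a library or changed the libraries fitted, filter, scaling, pseudocount, prior or block; adjusting for length or replicate number and asking for more than 2-fold were added after the data were seen.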

Additional observations from a re-analysis of the deposited data

Results flagged for a closer look

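Each result here is a difference between time effects (4 h minus 2 h) that passed limma's test of the difference itself, on the log2 scale, and no explanation was tested. The time effect of IL-21 plus anti-CD40 in GC B cells differed from that of anti-CD40 alone in 3386 genes, or 1619 when all 66 libraries were fitted with a set term. The named genes with higher time effects under both signals were Alyref (4.94), Spp1 (4.42), Aven (4.23), Mogs (3.96) and Ido1 (3.72). Alyref and Aven spread widely at 2 h, with 7.30, 5.51 and 3.78 for Alyref and 4.6, 3.37 and 1.02 for Aven. Their calls at 4 h against 2 h were lost under 6 and 2 of the 18 alternatives, and the anti-CD40 culture has 2 libraries at 2 h. Those with lower ones were Hpse (-2.47), Cpt1a (-2.27), Fcer2a (-2.04), Serinc3 (-2.0) and Pim2 (-1.97).

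Against IL-21 alone the difference was called in 3608 genes, or 1444 in the fit of all 66 libraries. It was positive for Fam160a1 (3.15), Mogs (2.89), Tnfrsf8 (2.85), Ebi3 (2.70) and Nek6 (2.70), and negative for Cpt1a (-2.43), Itgb3 (-2.34), Cblb (-2.33), Klf2 (-2.27) and Hpse (-2.24).

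Between GC and naive B cells under both signals it was called in 3080 genes, or 1185 in the fit of all 66 libraries. Positive values were those of Dnase1l3 (2.64), Elmsan1 (2.40), Cbfa2t3 (2.36), Abtb2 (2.34) and Endou (2.32). Negative values were those of Cblb (-2.48), Phf11b (-2.27), Gins2 (-2.22), Pck2 (-2.11) and Chek1 (-2.08).

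Against no stimulus the difference was called in 2012 genes, or 3662 with a replicate block. It was positive for Tnfrsf8 (4.89), Ido1 (3.24), Nek6 (3.20), Mogs (3.05) and Tspan33 (2.87), and negative for Hpse (-3.18), Cpt1a (-3.16), Pde2a (-2.85) and Cblb (-2.81). Tspan33 spread widely at 2 h, with 4.10, 3.84 and 1.18. Its call at 4 h against 2 h was lost under 2 of the 18 alternatives.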

How the results depend on the processing

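The count of genes that changed at 4 h against 2 h, 6658, lay between 4823 and 6790 under the alternatives that kept the question, and was 650 (261 rose, 389 fell) when a change of more than 2-fold was asked for, a stricter question by construction. Leaving out 1 library gave 5914 to 6394 genes for the time effect, 2555 to 3699 for the difference from anti-CD40 alone, 3058 to 3610 from IL-21 alone, 2640 to 3029 from naive B cells and 1485 to 2035 from no stimulus. Fitting all 66 libraries with a set term called 1619 differences from anti-CD40 alone, 1444 from IL-21 alone and 1185 from naive B cells, and the cause was not tested. Deviations of same-numbered libraries correlated at -0.026, 0.049 and 0.012. The deposited values carry an offset by replicate number, so these correlations cannot tell whether replicate numbers pair the samples. With a replicate block 6710 genes changed, and the differences numbered 3288, 3811 and 3299 in the order above and 3662 from no stimulus, against 2012 without the block, and Socs3, Batf, Nfkbia, Bcl2l1 and Cd40 were called, with 11 JAK-STAT genes that rose. Of 143 named genes followed under 18 settings, none reversed; 35 calls were lost and 14 gained of all gene and setting pairs. Depth is unknown, so what it limits cannot be stated.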
